A study of Rattus norvegicus with 10 samples.

Results

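Phex and Pdpn encode membrane proteins of the osteocyte, the bone cell that lies enclosed in mineralized matrix and is held to sense strain. Phex is a zinc endopeptidase of the M13 family, made by osteoblasts and osteocytes. Its loss in humans and mice gives X-linked hypophosphatemia, in which the phosphate-wasting hormone FGF23 is raised and the matrix is poorly mineralized. Pdpn (podoplanin, also called E11 or T1-alpha) is a mucin-type glycoprotein that marks the early osteocyte, where it is linked to the outgrowth of dendrites. It binds ezrin-type linkers of the actin cytoskeleton, and it is also made by lymphatic endothelium and by lung type I cells. Both genes were found through their rat RefSeq accession, NM_013004 for Phex and NM_019358 for Pdpn. Each accession had 1 row on every array, so the pair made up 2 of the 4803 spotted accessions, and both passed every filter.

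The tibial shafts came from female 12-week-old Wistar rats, cut free of both ends, periosteum and marrow. They were taken 6 hours after 1 session under anesthesia. In the LOAD group (5 rats) the right tibia was bent in a 4-point device for 300 cycles at 2 Hz with a peak setting of 60 N. In the SHAM group (5 rats) the right tibia was squeezed between opposed pads and so was not bent. The left tibia of each rat was left alone and served as control. The RNA of both tibiae of a rat, labelled with Cy3 and Cy5, was put on 1 spotted oligonucleotide array, which gave 10 arrays and 20 channels. By the labels each array thus stands for 1 rat, and p-values of the ratios measure the spread between rats. The fit of levels takes all 20 channels with 1 common correlation between the channels of a spot (intraspot correlation). Spread within arrays therefore enters its standard errors and p-values too. The labels of SHAM 1 conflict: SHAM stands in the title and the description, but LOAD in the field for the sample group. It was analysed as SHAM.

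The shaft RNA holds osteocytes, osteoblasts, lining cells and vessel cells in unknown shares, so fewer cells of a type and less RNA per cell cannot be told apart. Bone genes were well measured: the matrix protein genes Spp1 and Ibsp and the osteocyte gene Mepe carried signal in 20 of 20 channels. So did the red cell gene Alas2, the leukocyte gene Cd53, the muscle gene Ckm and the osteoclast gene Acp5. The osteocyte genes Sost, Dmp1 and Fgf23 and the osteoblast genes Col1a1 and Bglap were not found under the 1184 names that could be given to accessions, and were not analysed here.

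Several properties of the arrays bear on what follows. Both dyes carried signal for between 52.4% and 81.6% of spots per array. By a code in the image names of the file headers the arrays fell into 4 batches, each of which held both groups. They are called scan batches here, but the labels do not say what the code marks. The file headers number the RNA samples. On 8 arrays the treated tibia carried an odd number and the control tibia the next even one, but LOAD 4 paired number 3 (treated) with 26 (control) and SHAM 4 paired 25 (treated) with 4 (control), although the labels call every pair contralateral. The log2 ratios of most arrays also grouped by dye. The mean correlation of LOAD 2, whose treated tibia is labelled Cy5, was -0.26 with the 3 other arrays of that orientation and 0.09 with the 6 arrays of the opposite one, across genes. The other 3 arrays with the treated tibia in Cy5 correlated positively on average with arrays of their own orientation and negatively with the opposite one. Of the 6 arrays with the treated tibia in Cy3, LOAD 3 alone correlated less with its own orientation (0.04) than with the opposite one (0.08).

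The first question was whether bending moved either gene in the bone that received it. The measure is the log2 ratio of the treated right tibia over the control left tibia within a rat, after loess normalization of each array. A value of 0 means equal signal and a value of 1 means 2-fold more in the treated tibia. Phex was higher in the treated tibia of 4 of 5 LOAD rats, and Pdpn lay close to 0 in 4 of 5. With all 5 rats, in neither gene was the mean ratio distinguishable from 0 at the spread between rats.

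The log2 ratio of Phex was 0.31, 0.29, 0.12, 0.45 and -0.52 in LOAD rats 1 to 5. In SHAM rats 1 to 5 it was 0.30, -0.03, 0.35, -0.26 and -0.33. The LOAD rats were thus of 1 sign but for LOAD 5, the SHAM rats were divided, and the groups overlapped over most of their range. The mean was 0.13 ± 0.38 in LOAD and 0.0085 ± 0.31 in SHAM (SD, n = 5 each).

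For Phex in LOAD, limma gave a standard error of 0.14 and a 95% interval of the log2 ratio from -0.18 to 0.44 (adjusted p = 1.00 over 4707 genes; exact sign-flip permutation p = 0.5, 2-sided). In folds this interval runs from 0.885 to 1.36. The estimate moved with single rats: it was 0.29 without LOAD 5 (unadjusted p = 0.0315 and adjusted p = 0.619 in limma), 0.05 without LOAD 4 and 0.09 without LOAD 1. A higher ratio on at least 4 of 5 LOAD arrays was seen in 14.8% of genes with a value on every array, so the count for Phex is common among them. In SHAM the interval ran from -0.30 to 0.32 (exact permutation p = 0.938). The smallest p that 5 sign flips allow is 0.0625, so this exact test could not have passed 0.05.

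The Phex ratio also differed by dye. It averaged 0.20 on the 6 arrays with the treated tibia in Cy3, of which 5 were above 0, and -0.13 on the 4 with the treated tibia in Cy5, of which 1 was above 0. Within LOAD the mean was 0.30 on the Cy3 arrays and -0.12 on the Cy5 arrays, and within SHAM it was 0.11 and -0.14. A fit with a dye term gave 0.10 in LOAD and -0.025 in SHAM, neither past the test.

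The log2 ratio of Pdpn was 0.17, -1.16, 0.05, -0.15 and 0.0021 in LOAD rats 1 to 5. In SHAM rats 1 to 5 it was -0.01, 0.18, 0.46, -0.37 and -0.26. A single rat, LOAD 2, set the LOAD mean apart, since the other 4 LOAD rats lay within the SHAM range. The mean was -0.22 ± 0.54 in LOAD and -0.0016 ± 0.33 in SHAM (SD, n = 5 each).

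In limma the Pdpn ratio in LOAD had a standard error of 0.17 and a 95% interval from -0.60 to 0.17 (adjusted p = 1.00; exact sign-flip permutation p = 0.75, 2-sided). Without LOAD 2 the estimate was 0.02, and with the dyes of LOAD 2 exchanged it was 0.25. In SHAM the interval ran from -0.38 to 0.38 (exact permutation p = 1).

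**Figure D1:**
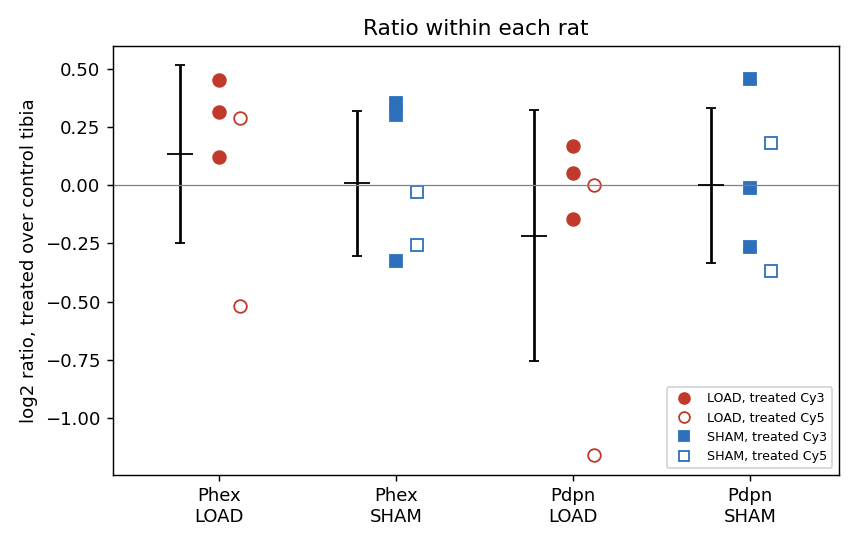
The log2 ratio of treated over control tibia (vertical axis) is plotted for each rat, with LOAD as circles and SHAM as squares, filled where the treated tibia was labelled Cy3 and open where it was labelled Cy5; bars give the mean and SD of 5 rats. Both groups lie around 0 for both genes, with LOAD 2 at -1.16 for Pdpn far below the rest.

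The net effect of bending is the difference of the ratios, LOAD minus SHAM, since SHAM shares the squeezing. For Phex it was 0.12 on the log2 scale with a standard error of 0.20 and a 95% interval from -0.31 to 0.56 (limma, adjusted p = 1.00). With single rats left out it ranged from 0.04 (without SHAM 5) to 0.29 (without LOAD 5). The exact permutation test of 5 against 5 rats gave p = 0.595, 2-sided, where the smallest possible value is 0.00794. For Pdpn the difference was -0.22 with a standard error of 0.25 and an interval from -0.76 to 0.33 (limma, adjusted p = 1.00; exact permutation p = 0.556). In folds the intervals span 0.806 to 1.47 for Phex and 0.592 to 1.25 for Pdpn. A 2-fold net change of either loess-normalized ratio, up or down, thus lies outside them, and changes inside them remain compatible with the data. Without normalization the standard error was 0.49 for both genes, so the 2-fold limit holds for the normalized ratios only.

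By scan batch the Phex difference was 0.16 in batch 1 (2 rats a group), -0.23 in batch 2, 0.71 in batch 3 and -0.19 in batch 4 (1 rat a group each). That of Pdpn was -0.58, -0.40, 0.22 and 0.27 in the same batches. Neither gene kept 1 sign over the batches. At a false discovery rate of 20%, 0% of the 4707 genes were called in LOAD, in SHAM or in the difference. At an unadjusted p under 0.05 in limma 3.34% of them were called in LOAD, 0.68% in SHAM and 1.49% in the difference, neither member among them.

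A second question was how the level in each tibia differed between the groups, treated and control side by side. The level is the log2 intensity of a channel after loess within and Aquantile scaling between arrays. It compares the same spot between tibiae and does not rank Phex against Pdpn. Phex was lower in LOAD rats than in SHAM rats in the treated and in the control tibiae alike, by about the same amount, and this difference did not pass the false discovery rate of 20% over all genes. Pdpn overlapped widely between the groups.

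The Phex level was 8.85, 9.16, 8.95, 9.41 and 8.52 in the treated tibiae of LOAD rats 1 to 5. It was 9.58, 9.55, 10.25, 9.57 and 9.49 in the treated tibiae of SHAM rats 1 to 5. All 5 loaded tibiae thus lay below all 5 squeezed ones, with a gap of 0.08 between LOAD 4 and SHAM 5.

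In the control tibiae the Phex level was 8.53, 8.87, 8.83, 8.96 and 9.04 in LOAD rats 1 to 5. It was 9.28, 9.58, 9.90, 9.82 and 9.81 in the control tibiae of SHAM rats 1 to 5. Here too the groups did not overlap, and the gap was wider, 0.24 between LOAD 5 and SHAM 1. Over both sides together, 1 LOAD tibia (treated, LOAD 4) exceeded the lowest SHAM tibia (control, SHAM 1).

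**Figure D2:**
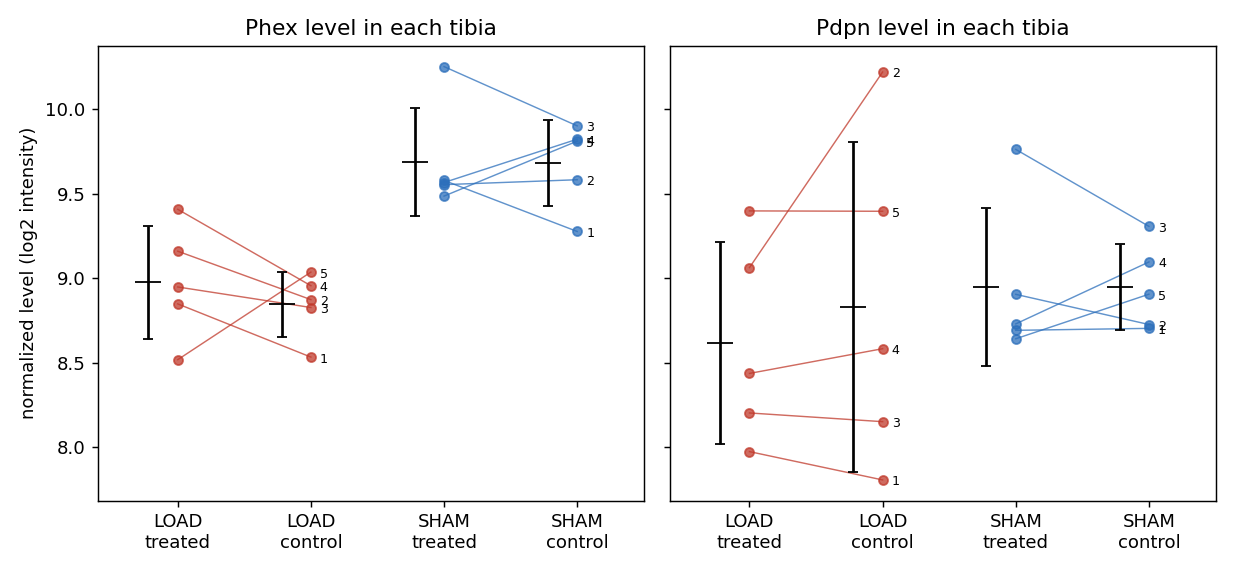
The normalized log2 level of Phex (left) and Pdpn (right) is shown for every tibia in the order LOAD treated, LOAD control, SHAM treated, SHAM control; lines join the tibiae of 1 rat, digits give the rat, and bars give the mean and SD of 5 tibiae. LOAD control tibiae average 8.85 and SHAM control tibiae 9.68 for Phex, and no control tibia of LOAD reaches one of SHAM.

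The mean Phex level was 8.98 ± 0.33 in LOAD treated, 8.85 ± 0.19 in LOAD control, 9.69 ± 0.32 in SHAM treated and 9.68 ± 0.25 in SHAM control tibiae (SD, n = 5 each). In order of level, both SHAM sides came first and did not differ beyond their spread, and both LOAD sides came after, likewise not beyond their spread. LOAD minus SHAM was -0.71 for the treated tibiae (standard error 0.23, 95% interval -1.20 to -0.23), which is 1.64-fold lower, with an adjusted p = 0.847 in limma's single channel fit. It was -0.83 for the control tibiae (standard error 0.23, interval -1.32 to -0.35), 1.78-fold lower, with an adjusted p = 0.603. The mean of both tibiae of a rat differed by -0.77 (standard error 0.22, interval -1.23 to -0.32; adjusted p = 0.503). The exact permutation p was 0.00794 for treated tibiae, for control tibiae and for the mean of both. That is the smallest possible value, which any gene without overlap has, and it is not adjusted over genes. Among 4472 genes ordered by p, Phex stood at place 33 in treated tibiae, 12 in control tibiae and 17 over both.

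The study had called Phex lower in LOAD control tibiae, at a false discovery rate under 20% in a single channel analysis of fewer spots. It did so on these same arrays, so the level difference here is a description and not an independent test. Phex did not pass that rate in the fit used here, and what made the outcomes differ was not tested. None of the 4472 genes (0%) was called at a false discovery rate of 20% in this fit, while 4.61% had an unadjusted p under 0.05 for treated tibiae, 5.23% for control tibiae and 6.06% for both. LOAD lay wholly below SHAM in 0.447% of genes for treated tibiae, in 0.671% for control tibiae, and in 0.134%, that is 6 genes, on each of the sides by itself. Besides Phex these 6 held the leptin receptor gene Lepr (-0.96 in treated and -1.29 in control tibiae) and 4 accessions without a name here. The treated and control comparisons are not independent, since both tibiae of a rat share a spot and the intraspot correlation was 0.74.

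Within scan batches the Phex difference could only be negative, since the groups did not overlap on either side. Its sign there is therefore no further support, and batches 2 to 4 hold 1 rat a group each. For treated tibiae the difference was -0.56, -1.30, -0.16 and -0.97 in batches 1 to 4. For control tibiae it was -0.73, -1.08, -0.87 and -0.78. The treated value nearest 0 came from batch 3, which holds LOAD 4 and SHAM 4.

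Those are the arrays whose RNA numbers do not follow each other. Without both of them the Phex difference was -0.83 for treated and -0.81 for control tibiae. With single arrays left out it ranged from -0.81 to -0.58 for treated and from -0.94 to -0.76 for control tibiae. If the control RNAs of LOAD 4 and SHAM 4 are exchanged, so that numbers 3 and 4 and numbers 25 and 26 belong together, the difference between control tibiae is -0.49 from the levels alone. The exchange leaves the treated tibiae in their groups, so from the levels alone their difference stays -0.71. In the fit with intraspot correlation the difference is then -0.07 for treated and -0.02 for control tibiae. In that reading a LOAD and a SHAM tibia share the spot on both of these arrays, and the LOAD tibia has the higher level. It stands at 9.41 against 8.96 on array LOAD 4 and at 9.82 against 9.57 on array SHAM 4. The part of this in the smaller difference was not tested. The labels give no such exchange, and which reading is right was not tested.

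Other measures moved with the Phex level. The spot confidence, a quality score of the scanner software between 0 and 1, was 0.54 to 0.72 for Phex on LOAD arrays (median 0.69) and 0.71 to 0.93 on SHAM arrays (median 0.85). Over all spots its median per array was 0.53 to 0.71 in LOAD and 0.64 to 0.72 in SHAM. The share of spots with signal in both dyes had a median of 63.6% in LOAD and 73.6% in SHAM. The Phex spot itself had a signal probability of 1 in 20 of 20 channels. Their part in the level difference was not tested.

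Markers of other cells were read in the same fit, and none of them passed the false discovery rate of 20%. The 4 blood and marrow genes measured all had lower values in LOAD, where 51.4% of all genes were lower for treated and 48.5% for control tibiae. Their median difference was -0.21 for treated and -0.44 for control tibiae. Their summed level spanned 12032 to 61720 intensity units in LOAD tibiae and 29304 to 45110 in SHAM tibiae, with Alas2 and Cd53 carrying signal in 20 of 20 channels. Among them Cd53 differed by -0.25 for treated and -0.46 for control tibiae (limma, unadjusted p = 0.166 and 0.0159). Of 10 genes matched to the skeletal muscle list, 2 were higher in LOAD treated tibiae (median -0.13) and 8 in LOAD control tibiae (median 0.37). Their summed levels were 8579 to 18008 units in LOAD and 9101 to 13629 in SHAM. The 10 include the cardiac troponin gene Tnnt2, with signal in only 5 of 20 channels, which differed by -0.34 for treated and -0.33 for control tibiae. Osteoblasts make Phex too: of 6 osteoblast and bone matrix genes, 6 were lower in LOAD treated tibiae (median -0.11). In LOAD control tibiae 3 were lower and 3 higher (median -0.06). The farthest of them from 0 was the matrix gene Bgn, at -0.61 for treated and -0.71 for control tibiae (standard error 0.45 each). The 6 osteocyte genes besides Phex and Pdpn summed to 4426 to 10786 units in LOAD and 5063 to 13847 in SHAM. The part of these cells in the Phex level was not tested.

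The Pdpn level was 7.97, 9.06, 8.20, 8.44 and 9.40 in the treated tibiae of LOAD rats 1 to 5. It was 8.69, 8.91, 9.76, 8.73 and 8.64 in the treated tibiae of SHAM rats 1 to 5. The LOAD values lay both below and above most SHAM values.

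In the control tibiae the Pdpn level was 7.81, 10.22, 8.15, 8.58 and 9.40 in LOAD rats 1 to 5. It was 8.70, 8.73, 9.31, 9.10 and 8.91 in the control tibiae of SHAM rats 1 to 5. Here LOAD rats held both the lowest and the highest tibia, a span of 5.33-fold.

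The mean Pdpn level was 8.62 ± 0.60 in LOAD treated, 8.83 ± 0.98 in LOAD control, 8.95 ± 0.47 in SHAM treated and 8.95 ± 0.26 in SHAM control tibiae (SD, n = 5 each), and no neighbours in this order differed beyond their spread. LOAD minus SHAM was -0.33 for treated tibiae (standard error 0.36, 95% interval -1.09 to 0.43) and -0.12 for control tibiae (interval -0.88 to 0.64). The adjusted p in limma was 0.974 and 0.968, and the exact permutation p was 0.365 and 0.802. Over both tibiae the difference was -0.22 (interval -0.93 to 0.49; exact permutation p = 0.532). Without LOAD 1 the control difference was 0.14 and without LOAD 2 it was -0.47. Within batches 1 to 4 the difference was -0.28, -1.56, -0.29 and 0.76 for treated tibiae and 0.30, -1.16, -0.51 and 0.49 for control tibiae. Lymphatic vessel cells are another source of podoplanin. Of 15 endothelial genes listed, 3 had a level here, and they summed to 1160 to 1644 units in LOAD and 1266 to 1832 in SHAM tibiae. None of them is a marker of lymphatic vessels, so they do not measure this source. The part of lymphatic vessels in the Pdpn level was not tested.

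**Figure D3:**
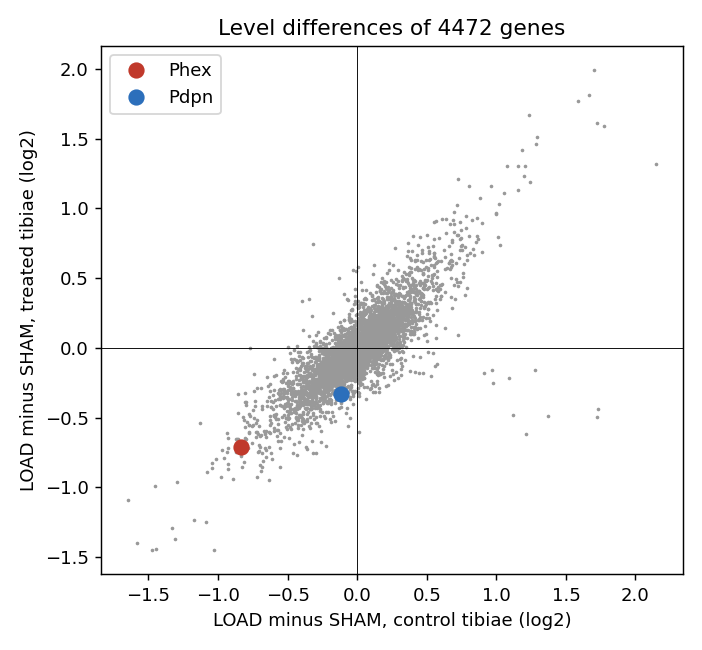
Each grey point is 1 of 4472 genes, with the LOAD minus SHAM difference in log2 level of treated tibiae on the vertical axis and of control tibiae on the horizontal axis. Phex lies at -0.71 (treated) and -0.83 (control), at the lower left of the cloud, and Pdpn at -0.33 (treated) and -0.12 (control), near its middle.

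Between the rats of a group the mean level of both tibiae spread more for Pdpn than for Phex. For Phex the mean level of both tibiae had an SD over rats of 0.19 in LOAD and 0.24 in SHAM, and the rats spanned 0.49 in LOAD and 0.65 in SHAM. For Pdpn the SD was 0.76 in LOAD and 0.34 in SHAM, with LOAD rats between 7.89 and 9.64. The log2 ratio between the tibiae of a rat had a mean size of 0.34 in LOAD and 0.25 in SHAM for Phex. For Pdpn it was 0.31 in LOAD, where LOAD 2 alone had 1.16, and 0.26 in SHAM. The mean size of a difference and the SD of rat means are unlike measures, so they were not set against each other. SHAM 3 had the highest rat mean of its group for both genes, 10.08 for Phex and 9.54 for Pdpn.

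The other genes of the pathways were few on this array. Of 19 osteocyte genes listed, 8 were on the array, and of 30 genes of phosphate handling and mineralization, 11. In the ratio difference, LOAD minus SHAM, 6 of 8 osteocyte genes were above 0 (median 0.10) and 7 of 11 phosphate genes (median 0.04). Over all genes 2249 of 4707 were above 0, with a median of -0.01. The phosphate list includes Slc34a1, Casr and Ahsg, which carried signal in only 6, 8 and 0 of 20 channels and are not described further. None passed the false discovery rate of 20%. The farthest from 0 was Mepe, at 0.73 with a standard error of 0.32 (limma, unadjusted p = 0.0395, adjusted p = 1.00). Mepe is a matrix phosphoglycoprotein whose acidic peptide Phex binds and cleaves. Its ratio in LOAD was 0.86, above 0 in 5 of 5 rats (limma, unadjusted p = 0.00235). The study reported Mepe as raised in loaded tibiae.

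In levels, 7 of 8 osteocyte genes were lower in LOAD control tibiae than in SHAM control tibiae (median -0.10, against 0.01 over all 4472 genes), Phex and Pdpn among them, and 5 of 6 without that pair. In treated tibiae 5 of 8 were lower (median -0.06, against -0.01). Phex was the only one of them with an unadjusted p under 0.05. Cd44, a hyaluronan receptor that is also a partner of podoplanin, differed by -0.06 in treated and -0.27 in control tibiae, and the gap junction gene Gja1 by 0.04 and -0.07. Tnfrsf11b (osteoprotegerin), the decoy receptor that restrains osteoclasts, differed by 0.34 and 0.25. None of these 3 passed the test.

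Among genes of phosphate handling, the phosphate transporter gene Slc20a2 differed by -0.21 in treated and -0.25 in control tibiae, and the vitamin D receptor gene Vdr by 0.31 and 0.28. The parathyroid hormone receptor gene Pth1r differed by -0.09 and 0.17 and Spp1 (osteopontin), another substrate of Phex, by -0.10 and 0.03. The 3 other zinc and membrane peptidases on the array had differences of 0.05 and -0.03 for Mme (neprilysin, of the same M13 family), -0.54 and -0.33 for Cpe and 0.02 and 0.26 for Dpp4. For podoplanin, Rock2, a kinase downstream of RhoA, differed by 0.06 and -0.0027. No gene in these lists was called, against 0% of all genes.

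**Figure D4:**
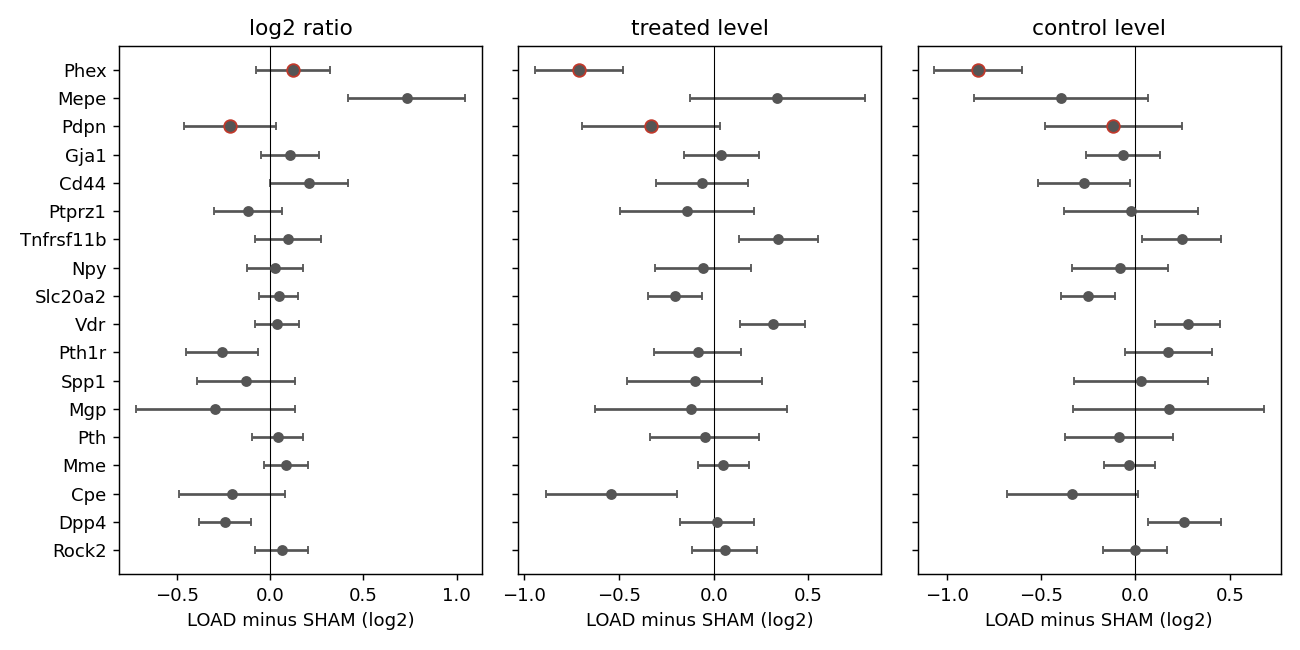
LOAD minus SHAM with its standard error (horizontal axes, log2) is drawn for 18 osteocyte, phosphate, peptidase and podoplanin-partner genes (rows) as the difference of the ratio, of the treated level and of the control level, with Phex and Pdpn in red. Phex has the lowest value in both level panels, at -0.71 and -0.83, while Mepe has the highest value of the ratio panel at 0.73.

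Finally, the genes whose pattern was most like that of each member were listed by Pearson's r among 562 named genes with signal in every channel. These are descriptions: the tibiae of a rat share an array, and the points share dye and scan batch. For the Phex ratio over 10 rats they were Id3 (r = 0.92), Vav1 (0.87), Fn1 (0.87), Acadvl (0.84) and Tsc22d1 (0.84). Id3 encodes an inhibitor of helix-loop-helix transcription factors and Fn1 fibronectin. The ratios of Pdpn over the same rats were most like those of the calponin gene Cnn3 (0.95), the myelin protein gene Pmp22 (0.94), the sheddase gene Adam17 (0.93), the proprotein convertase gene Pcsk6 (0.91) and the lysosomal fucosidase gene Fuca1 (0.91). No gene stood in both lists. Each gene listed for Pdpn had its lowest ratio in LOAD 2, as Pdpn did. Those listed for Phex had theirs in LOAD 5, as Phex did. Spearman's rho with Pdpn was 0.64 for Pcsk6 and 0.85 to 0.89 for the others. The ratios of Phex and Pdpn had an r of 0.05 with each other. Within groups it was -0.24 in LOAD and 0.80 in SHAM (5 rats each). Their mean levels of both tibiae had an r of 0.24 within LOAD and 0.97 within SHAM.

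For the level over 20 tibiae, Phex was most like Vldlr (r = 0.76), Lamp1 (0.75), Vcam1 (0.75), Efnb1 (0.74) and Itgb1 (0.73). The Phex tibiae fall into a LOAD and a SHAM cluster, and an r over all tibiae includes the distance between them. Vcam1, an adhesion molecule, differed by -0.65 in treated and -0.80 in control tibiae, and its r with Phex was 0.71 within LOAD and 0.01 within SHAM. Pdpn was most like the calmodulin gene Calm2 (r = 0.91), Spp1 (0.90), Cnn3 (0.88), Pcsk6 (0.86) and the galectin gene Lgals1 (0.80). Here the likeness to Spp1 and Calm2 held within both groups, at 0.93 and 0.97 within LOAD and 0.82 and 0.87 within SHAM (10 tibiae of 5 rats each). Spp1 in the mean of both tibiae was lowest in LOAD 1 at 11.51 and highest in LOAD 2 at 13.19, which were also the lowest and the highest rat for Pdpn.

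**Figure D5:**
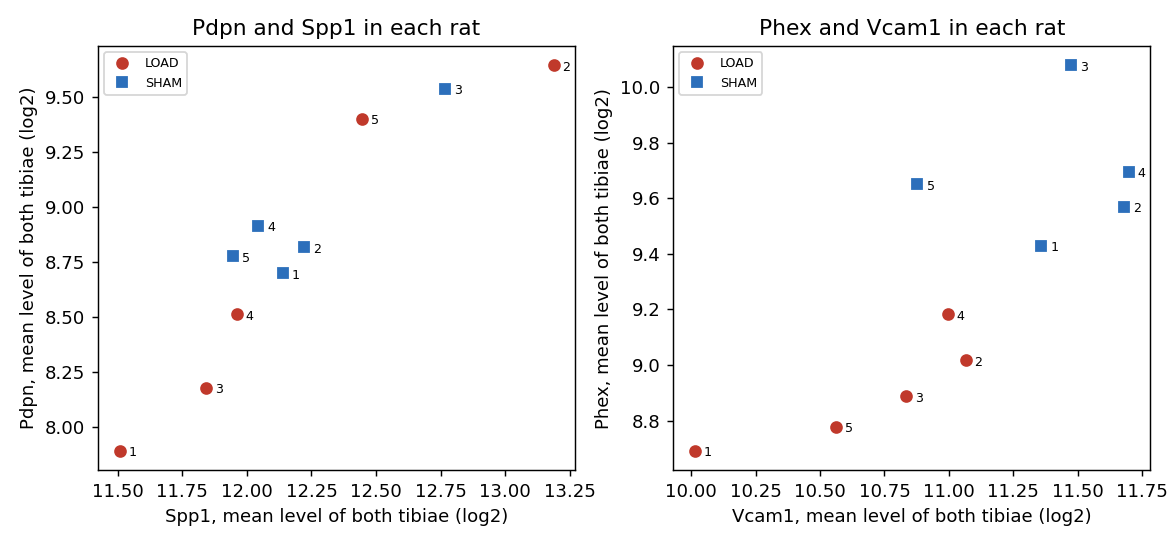
Each point is 1 rat (LOAD circles, SHAM squares, digits for the rat) with the mean log2 level of both tibiae of Pdpn against Spp1 (left) and of Phex against Vcam1 (right). Pdpn and Spp1 run together through both groups from LOAD 1 to LOAD 2, while the Phex panel separates into a lower LOAD and an upper SHAM cluster.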

How the data were processed

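RNA of treated and control tibia of 10 rats was compared on 10 arrays with a pair of dyes. The deposited scanner tables, made by the authors with BlueFuse (2.0 per the file headers, 3.0 per the methods), give an intensity (amplitude) per channel, with the background treatment not given in the sources used here, combined over duplicate spots and not normalized. Beside it, the deposited tables score each spot with a fraction for its confidence and another for the probability of signal in each channel. The deposited matrix holds log2 ratios of treated over control that match the log2 ratios of these intensities without normalization, and it was used as an alternative only.

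Values of spots below a confidence of 0.11 were treated as missing. Ratios were normalized by loess (span 0.3, 4 iterations), and genes with more than 1 missing value were left out, which kept 4707. A mean per group was fitted with limma 3.58.1 in R 4.3.3. Levels came from limma's single channel fit after Aquantile scaling on the 4472 genes that had no missing value. P-values were adjusted by Benjamini-Hochberg over all genes, with a threshold of 20%, after the study's methods. Single values were also tested by exact permutation. No depth applies to arrays, and their number limits the precision.

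Groups and dyes came from the labels. The genes, the lists and the alternatives were chosen with earlier results of these data known. Named genes were both members, the measured genes of 4 lists (osteocyte, phosphate and mineralization, M13 and related peptidases, podoplanin partners) with a signal probability of at least 0.5 in at least 10 channels, and the 5 genes most like each member. Lepr and some markers of other cells were named beside these. Symbols came from RefSeq for 1177 accessions and from the study's gene names for 7, and 3619 had none. Alternatives changed normalization, filters, terms for dye, batch and replicate number, and the arrays included. The scripts were tested on simulated data. Probe sequences, manually removed spots and the duplicate spots were not analysed here.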

Additional observations from a re-analysis of the deposited data

Results flagged for a closer look

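In 12 groups of 5 values, 3 had a value set apart from the rest by over 0.71 of the group's range; chance does so in about 1 in 20 groups.

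The treated tibia of SHAM 3 had a Phex level of 10.25, and the gap to the nearest of the other 4 was 0.879 of the range. The same tibia had a Pdpn level of 9.76, with a gap of 0.765 of the range. Its control tibia, at 9.90 for Phex and 9.31 for Pdpn, was the highest of its group for both genes too.

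The Pdpn log2 ratio of LOAD 2 was -1.16, with a gap of 0.763 of the range of the LOAD group. Its control tibia had the highest Pdpn level of all 20 tibiae, 10.22, and its treated tibia stood at 9.06. The ratio of Spp1 in this rat was -0.81. LOAD 2 is the array whose ratios correlated negatively with the other arrays of its dye orientation, and the part of this in the value was not tested.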

How the results depend on the processing

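No ratio or level of Phex or Pdpn passed a false discovery rate of 20% under any alternative in limma, with 1 exception: with the replicate number as a block the mean Phex level of both tibiae, LOAD minus SHAM, was -0.77 with an adjusted p = 0.124. The block changed no other call of a member and gave 17 genes called between control tibiae, and the labels do not say what the number marks. Deviations of same-numbered arrays from their group means correlated at -0.41 to 0.07 for the ratios, with 0 of 5 highest for their own number. For the levels r was 0.26, 0.11, 0.12, 0.12 and -0.23 in treated and -0.09, -0.06, 0.25, 0.17 and 0.04 in control tibiae of numbers 1 to 5, so not every pair was above 0.1, and the numbers were not taken to pair the rats. Same-numbered arrays share a scan batch. Of 429 recomputed values, 391 kept direction and side of the threshold and 29 changed sign.

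The Phex ratio in LOAD was -0.13 without normalization and with the deposited matrix, and -0.042 with the control tibiae of the arrays numbered 4 exchanged. The Phex ratio in SHAM was -0.42 without normalization and with the matrix, -0.025 with a dye term, -0.029 with scan batch as a block and -0.065 with SHAM 1 counted as LOAD. The Phex difference in ratio was -0.024 without both arrays numbered 4 and -0.22 with their controls exchanged. For Pdpn, exchanging the dyes of LOAD 2 gave 0.25 in LOAD and 0.25 in the difference. The Pdpn ratio in SHAM was 0.0021 with median centring, 0.023 with scan batch as a block, 0.00096 with SHAM 1 counted as LOAD, 0.090 without both arrays numbered 4 and 0.10 with their controls exchanged. That exchange also moved the Pdpn control difference to 0.18, or 0.089 without intraspot correlation, and that of both tibiae to 0.013. The last alternatives, on the arrays numbered 4, were chosen after seeing the data. The cause of these changes was not tested.

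With single arrays left out the Phex ratio ranged from 0.05 to 0.29 in LOAD, from -0.077 to 0.092 in SHAM and from 0.04 to 0.29 in the difference. The Pdpn ratio ranged from -0.31 to 0.019 in LOAD, from -0.12 to 0.090 in SHAM and from -0.31 to 0.020 in the difference, with 0.019 and 0.020 from the fits without LOAD 2. The Phex level difference ranged from -0.81 to -0.58 in treated tibiae, from -0.94 to -0.76 in control tibiae and from -0.84 to -0.68 over both, and that of Pdpn from -0.52 to -0.13, from -0.47 to 0.14 and from -0.46 to -0.02.

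The count of genes called in LOAD, 0 in the fit as reported, was 9 without normalization and 10 with the matrix, and in the difference 2 and 2. Between control tibiae it was 3 with scan batch as a block, 3 with the controls of the arrays numbered 4 exchanged, and from 0 to 8 with single arrays left out, 8 without LOAD 3. Phex and Pdpn carried signal in 20 of 20 channels.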
